A study of Gallus gallus with 72 samples.

Results

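Myostatin and 4 genes whose products bind it or receive its signal were followed through breast muscle growth in chickens. The genes were MSTN (myostatin), WFIKKN1, FSTL3 and FST, which encode secreted binding proteins, and ACVR2B, which encodes a receptor. They were picked by symbol, with earlier results of these data known. Each symbol stood on 1 row of the count table, and the members make up 5 of its 12046 genes. RNA from breast muscle was sequenced in 72 libraries from Cornish and White Plymouth Rock purebreds and the crossbred offspring of these breeds. Sampling was at embryonic day 17 (E17) and, after hatch, on day 1 (D1), day 21 (D21) and day 42 (D42). Every combination of breed and stage had 6 libraries, which gave 12 groups. The labels describe all birds as male broilers and state no further treatment or allele for any group.

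Myostatin is a growth factor of the TGF-beta family that restrains muscle growth, and mammals or birds that make less of it are more heavily muscled. It circulates bound to its own propeptide and to inhibitory proteins. Follistatin (FST), the follistatin-like protein FSTL3 and WFIKKN1 can bind it, which is known mainly from work in mammals. Free myostatin binds a type II receptor, chiefly ACVR2B, which recruits a type I receptor and leads to phosphorylation of SMAD2 and SMAD3.

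Total counts ranged from 16673085 in crossbred D1 library 1 to 75670549 in Cornish D1 library 2, with a median of 54464688.5, and the next lowest total was 47478167. The mean correlation of a library's log2 expression with the other libraries of its group, over 10709 genes, was lowest in crossbred D42 library 3 (0.924), Cornish D42 library 3 (0.931) and White Plymouth Rock D1 library 1 (0.936). The source label names breast muscle myofibroblasts under a cell line tag, whereas the extraction protocol describes frozen breast muscle tissue. Of 7 skeletal muscle marker genes 5 were in the table (ACTA1 and CKM were not analysed here), and their summed level was at least 11098 CPM (counts per fixed library size) in every library. Markers of connective tissue, endothelium, blood and leukocytes were also present in every library at E17. The labels do not say whether the libraries of a group came from separate birds, so the p-values below measure the spread between these libraries only.

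MSTN lies on chromosome 7 at 305390 to 312076 of the GRCg7b assembly, and WFIKKN1 on chromosome 14 at 13570289 to 13573148. FSTL3 lies on chromosome 28 at 3172372 to 3180564, FST on the Z chromosome at 16612271 to 16618886, and ACVR2B on chromosome 2 at 5716617 to 5842556. All 5 are annotated as protein-coding genes in RefSeq. Levels are given as CPM scaled by TMM factors (trimmed mean of M values). CPM does not account for transcript length, so each gene is compared only with itself across groups.

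MSTN was high before hatch, low on the day after hatch and high again by 3 weeks. At E17 its lowest, median and highest values were 80.7, 138 and 181 CPM in Cornish, 138, 190 and 225 CPM in crossbred, and 72.4, 168 and 227 CPM in White Plymouth Rock libraries. At D1 they were 5.11, 9.20 and 14.8 CPM in Cornish, 4.18, 6.78 and 26.3 CPM in crossbred, and 3.69, 6.72 and 11.6 CPM in White Plymouth Rock libraries. All 18 D1 libraries lay below all libraries of the other stages, the closest being crossbred D1 library 5 at 26.3 CPM. At D21 the group values ran from 33.1 through 52.9 to 82.1 CPM in Cornish, from 31.8 through 72.8 to 113 CPM in crossbred, and from 30.4 through 75.9 to 87.2 CPM in White Plymouth Rock libraries. At D42 they ran from 44.2 through 69.7 to 164 CPM, from 47.0 through 95.4 to 232 CPM, and from 53.4 through 80.6 to 137 CPM in the same order of breeds. Ordered by group mean, the 3 E17 groups came first, then the D42, D21 and D1 groups. Within that order the ranges of every neighbouring pair overlapped and their means differed by less than the larger SD, except between Cornish D21 (56.2 ± 19.7 CPM, SD, n = 6) and crossbred D1 (9.93 ± 8.18 CPM).

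WFIKKN1, a secreted protease-inhibitor-like protein that binds the myostatin propeptide and mature myostatin in mammals, fell at each of the first 2 steps and was nearly undetected afterwards. Its E17 values were 111, 164 and 190 CPM (lowest, median and highest) in Cornish, 79.4, 108 and 124 CPM in crossbred, and 50.9, 97.6 and 133 CPM in White Plymouth Rock libraries. At D1 they were 4.21, 13.8 and 32.0 CPM, 1.07, 6.95 and 18.2 CPM, and 2.74, 6.29 and 11.2 CPM. The E17 and D1 ranges did not overlap. At D21 the deposited counts of WFIKKN1 were 0 to 10 in Cornish, 4 to 25 in crossbred and 4 to 16 in White Plymouth Rock libraries. At D42 they were 0 to 28, 0 to 32 and 0 to 12. The count was 0 in 2 of 18 libraries at D21 and in 6 of 18 at D42, so differences among these groups rest on few reads. In the order of group means the E17 groups stood first and the D1 groups next, with gaps without overlap after White Plymouth Rock E17 and after White Plymouth Rock D1. Cornish E17, which led the order, overlapped crossbred E17 but stood above it by more than the larger SD.

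FSTL3, a follistatin-like glycoprotein that in mammals binds activin and myostatin, was much lower at D21 and D42 than at E17 and D1. Its E17 values were 28.9, 32.9 and 40.7 CPM in Cornish, 26.7, 33.9 and 44.7 CPM in crossbred, and 22.8, 36.1 and 40.4 CPM in White Plymouth Rock libraries. At D1 they were 32.5, 45.6 and 56.7 CPM, 21.5, 40.6 and 60.2 CPM, and 13.9, 39.5 and 50.2 CPM. Apart from White Plymouth Rock D1 library 1 at 13.9 CPM, no library of these stages was as low as the highest later value, 14.6 CPM. At D21 FSTL3 ran from 3.60 through 4.57 to 8.26 CPM in Cornish, from 5.65 through 10.2 to 14.0 CPM in crossbred, and from 7.12 through 11 to 14.6 CPM in White Plymouth Rock libraries. At D42 the values were 4.16, 7.21 and 8.87 CPM, 3.79, 6.67 and 10.6 CPM, and 4.17, 7.78 and 10.6 CPM. The 6 younger groups stood above the 6 older ones in the order of means, with the widest gap after Cornish E17, and no other neighbours differed beyond their SD.

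FST, which encodes follistatin, ran opposite to MSTN across hatch. At E17 it measured 11.6, 13.7 and 18.2 CPM in Cornish, 12, 14.8 and 22.0 CPM in crossbred, and 13.4, 14.7 and 18.9 CPM in White Plymouth Rock libraries. At D1 it measured 65.3, 102 and 199 CPM, 69.4, 110 and 136 CPM, and 28.5, 105 and 162 CPM. Every D1 library exceeded every E17 library. The D21 values were 23.1, 35.9 and 61.7 CPM, 28.9, 42.7 and 59.3 CPM, and 29.7, 35.6 and 41.9 CPM. The D42 values were 21.9, 43.6 and 79.7 CPM, 15.6, 42.8 and 81.9 CPM, and 26.8, 33.2 and 52.1 CPM, and the ranges of the D21 and D42 groups overlapped throughout. In the order of means the D1 groups came first, the D21 and D42 groups were interleaved, and the E17 groups came last.

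ACVR2B, an activin type II receptor that binds myostatin, was highest at D1 and lowest at D21 and D42. Its E17 values were 3.71, 5.08 and 5.44 CPM in Cornish, 4.23, 5.32 and 6.63 CPM in crossbred, and 4.04, 4.45 and 5.72 CPM in White Plymouth Rock libraries. At D1 they were 6.81, 9.05 and 12.2 CPM, 6.22, 13.4 and 15.2 CPM, and 4.99, 12 and 13.5 CPM. Of the D1 libraries, White Plymouth Rock library 1 and crossbred library 5 fell within the E17 range. The 36 libraries of D21 and D42 lay between 0.898 and 3.23 CPM, below every younger library. Neighbouring group means differed beyond their SD at 2 places only, after Cornish D1 and after White Plymouth Rock E17.

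**Figure D1:**
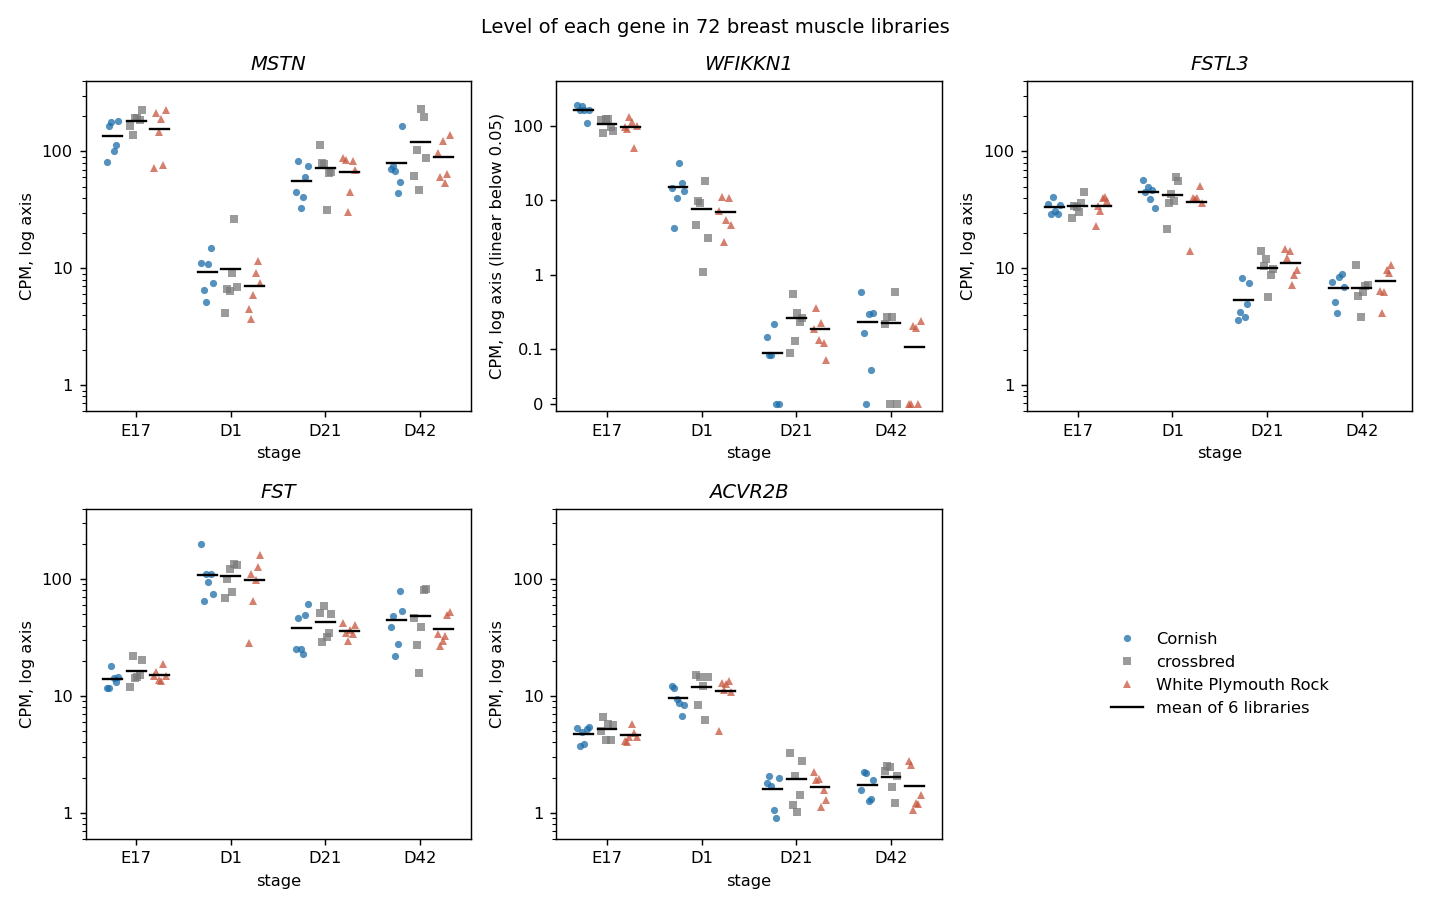
Each point is the CPM of 1 gene in 1 library on a log axis (linear below 0.05 CPM for WFIKKN1, to show counts of 0), by stage and breed, and black bars are means of 6 libraries. MSTN dips at D1 where FST peaks, and WFIKKN1 is at or below 0.593 CPM in every D21 and D42 library.

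Across hatch MSTN and WFIKKN1 fell while FST and ACVR2B rose. Taken as the mean of the 3 breeds, MSTN was 158 ± 50.7 CPM at E17 and 8.77 ± 5.26 CPM at D1 (SD, n = 18 each), an 18-fold fall (log2 fold change −4.17 ± 0.24 SE, adjusted p = 2.96e-24, edgeR's quasi-likelihood test with Benjamini-Hochberg adjustment over 11932 genes). WFIKKN1 was 12.6-fold lower at D1 (−3.66 ± 0.26, adjusted p = 1.3e-19). FST was 6.92-fold higher (2.79 ± 0.18, adjusted p = 2.36e-21). ACVR2B was 2.23-fold higher (1.15 ± 0.14, adjusted p = 1.04e-10). For FSTL3 the difference was 0.28 ± 0.14 on the log2 scale with an adjusted p of 0.0571 (edgeR), and it passed the threshold when any 1 of 8 of the 72 libraries was left out, whereas scaling by total counts alone gave 0.13 (adjusted p = 0.443). Thus 4 of the 5 genes passed the 0.05 threshold, where 73% of all genes tested did. The E17 and D1 libraries did not overlap for MSTN, WFIKKN1 and FST, a property of 16.6% of genes tested. The change of MSTN was exceeded in size by 0.645% of genes tested, that of FST by 2.35% and that of ACVR2B by 18.7%.

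From D1 to D21 all 5 genes changed, MSTN upward and the other 4 downward. MSTN rose 7.64-fold to 65.1 ± 23.0 CPM (SD, n = 18; log2 fold change 2.93 ± 0.22 SE, adjusted p = 1.75e-18, edgeR). WFIKKN1 fell by 5.80 ± 0.34 on the log2 scale (adjusted p = 1.02e-23), from 9.96 ± 7.41 to 0.178 ± 0.136 CPM. ACVR2B fell 6.07-fold (−2.60 ± 0.15, adjusted p = 5.12e-24) and FSTL3 fell 4.75-fold (−2.25 ± 0.14, adjusted p = 4.47e-22). FST fell 2.60-fold (−1.38 ± 0.17, adjusted p = 1.99e-10), and every D21 library still lay above the highest E17 library. Of all genes tested 73.2% passed the threshold at this step, and the libraries did not overlap for MSTN, WFIKKN1 and ACVR2B, as for 13.2% of all genes. A fall at hatch followed by a rise, as in MSTN, was called in 14.5% of genes tested. The reverse course of FST and ACVR2B was called in 16% and the successive falls of WFIKKN1 in 10.6%.

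From D21 to D42 the differences were smaller. MSTN rose by 0.53 ± 0.21 on the log2 scale (1.44-fold, adjusted p = 0.0443, edgeR), from 65.1 ± 23.0 to 96.7 ± 54.2 CPM (SD, n = 18 each), with overlapping ranges. It was the only 1 of the 5 called, where 32.6% of all genes were. Leaving out 1 library at a time among all 72, the call was lost in 9 cases (Cornish D21 library 3, crossbred D21 library 4, White Plymouth Rock D21 libraries 3 and 4, Cornish D42 library 6, crossbred D42 libraries 4 and 5, and White Plymouth Rock D42 libraries 3 and 6), with the highest adjusted p, 0.089, without Cornish D42 library 6. The log2 differences of the other 4 were 0.12 ± 0.46 for WFIKKN1, −0.27 ± 0.14 for FSTL3, 0.13 ± 0.17 for FST and 0.05 ± 0.15 for ACVR2B. The 95% interval reached from −0.22 to 0.47 for FST and from −0.24 to 0.34 for ACVR2B. It reached from −0.55 to 0.01 for FSTL3 and from −0.79 to 1.04 for WFIKKN1. For these last genes the sign differed between breeds, with no call in any. FSTL3 measured 0.32 ± 0.24 in Cornish, −0.59 ± 0.24 in crossbred and −0.54 ± 0.24 in White Plymouth Rock birds. WFIKKN1, on few reads, measured 1.36 ± 0.82, −0.16 ± 0.68 and −0.82 ± 0.84 in the same order.

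Between E17 and D42 all 5 genes differed, where 81.2% of all genes tested did. MSTN was 1.63-fold lower at D42 (−0.71 ± 0.21, adjusted p = 0.00171, edgeR), FSTL3 4.71-fold lower and ACVR2B 2.63-fold lower. FST was 2.90-fold higher (1.54 ± 0.18, adjusted p = 4.91e-12). WFIKKN1 fell by 9.33 ± 0.37 on the log2 scale, a change exceeded in size by 0.0419% of genes tested. The libraries of E17 and D42 did not overlap for WFIKKN1, FSTL3 and ACVR2B, as for 29.7% of all genes.

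The first 2 steps had the same calls in all 3 breeds. MSTN, WFIKKN1, FST and ACVR2B were called across hatch in each breed and FSTL3 in none, where 57.5% of all genes were called in Cornish, 53.7% in crossbred and 53.5% in White Plymouth Rock birds. From D1 to D21 all 5 were called in each breed, against 55.3%, 56.3% and 53.6% of all genes in the same order. The fall of MSTN across hatch measured −3.87 ± 0.41 in Cornish, −4.19 ± 0.41 in crossbred and −4.45 ± 0.42 in White Plymouth Rock birds on the log2 scale. The fall of FSTL3 from D1 to D21 measured −3.01 ± 0.26 in Cornish, −2.04 ± 0.25 in crossbred and −1.69 ± 0.24 in White Plymouth Rock birds. That of WFIKKN1 measured −7.32 ± 0.64, −4.83 ± 0.55 and −5.24 ± 0.57 in the same order, and rests on D21 counts of 0 to 25. From D21 to D42 edgeR called 0 of the 5 within any breed, against 8.95%, 6.12% and 8.26% of all genes, and DESeq2 also called 0. At that step 0, 1 and 1 of the 5 had an unadjusted p under 0.05 in edgeR, in Cornish, crossbred and White Plymouth Rock birds, and 1, 2 and 1 had in DESeq2. The test of the breed by stage interaction called 0 of the 5 genes, in edgeR and in DESeq2, where edgeR called 0.0587% of all genes. In edgeR FSTL3 alone of the 5 had an unadjusted interaction p under 0.05 (0.00941, adjusted p = 0.363), and in DESeq2 2 of the 5 had.

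**Figure D2:**
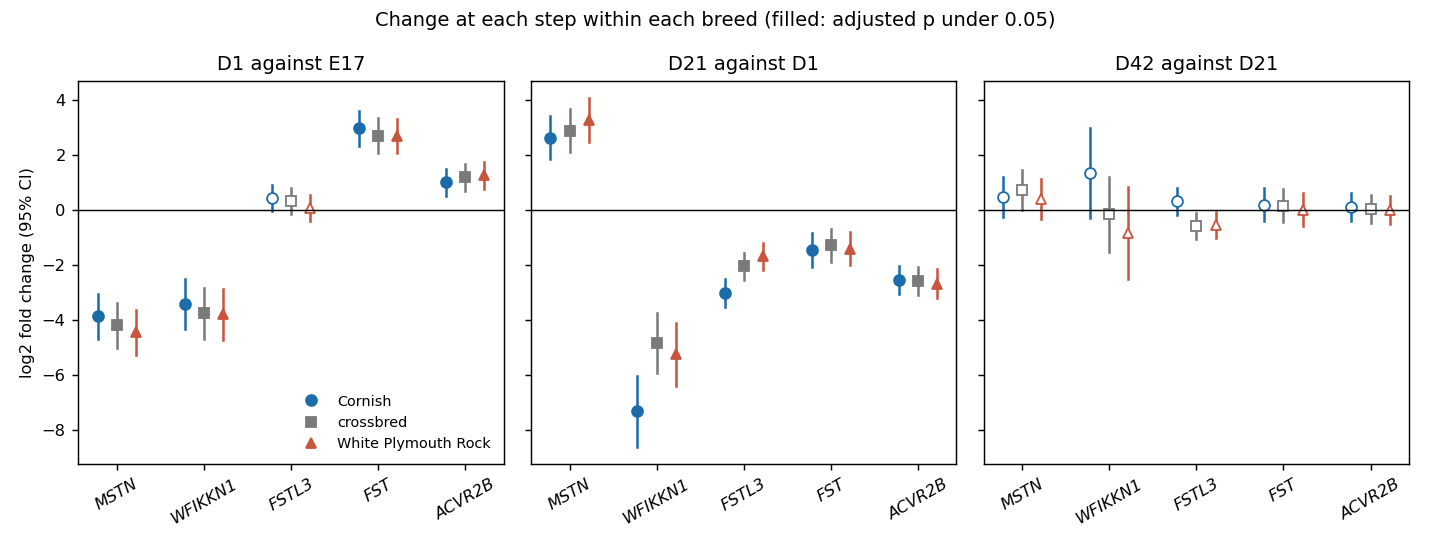
Points are log2 fold changes of the 5 genes at each step within each breed from the edgeR fit of 72 libraries, bars are 95% intervals, and filled points have an adjusted p under 0.05. At the first 2 steps each gene with filled points moves in the same direction in the 3 breeds, but not always by a like amount. FSTL3 has no filled point across hatch, and its interval includes 0 in each breed. From D21 to D42 0 points are filled.

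The count of FST relative to MSTN rose across hatch and fell from D1 to D21. Its log2 ratio had a median of −3.55 at E17 (range −3.94 to −2.02), 3.45 at D1 (2.37 to 4.91), −0.81 at D21 (−1.47 to 0) and −1.24 at D42 (−2.56 to 0.55), each over 18 libraries. All D1 libraries lay above all others, and all E17 libraries lay below all D21 libraries. The ratio of 2 counts depends on the length of both transcripts, so only its shift between stages is read, and the ranges of the 3 breeds overlapped at each stage.

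**Figure D3:**
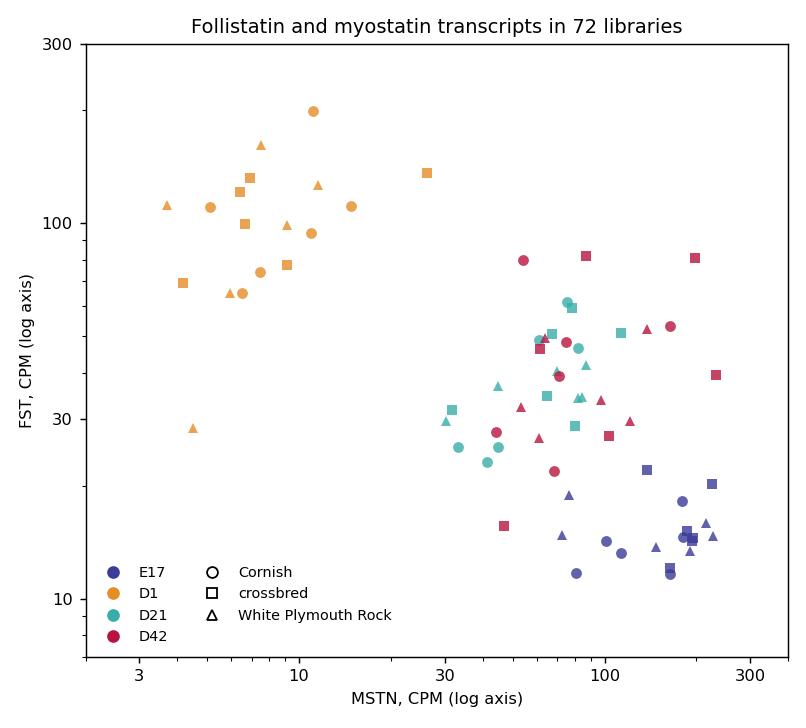
Each point is 1 library, with MSTN on the horizontal and FST on the vertical log axis in CPM, coloured by stage and shaped by breed. The D1 libraries lie apart at the upper left, between 3.69 and 26.3 CPM of MSTN, and the E17 libraries at the lower right.

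Markers of several cell types moved at the same steps. The summed level of 5 skeletal muscle markers had a range of 11098 to 18799 CPM at E17, 12488 to 33279 CPM at D1, 31372 to 57639 CPM at D21 and 27259 to 71601 CPM at D42. All 5 were called higher at D1 than at E17. The sum of 8 connective tissue markers ran from 38082 to 58451 CPM at E17, 5522 to 33690 CPM at D1, 11950 to 25613 CPM at D21 and 4511 to 22589 CPM at D42. Of these 8, 7 were called lower and 1 higher at D1 than at E17. The 5 muscle precursor markers (PAX7, MYF5, CDH15, MYOD1 and MYOG) summed to medians of 806, 805, 453 and 407 CPM at the 4 stages, but across hatch 1 was called higher and 3 lower. The median of MYOD1 went from 141 to 356 CPM at that step, that of CDH15 from 526 to 320 CPM and that of MYOG from 37.8 to 7.37 CPM. Red blood cell markers went from a summed median of 1007 to 281 CPM across hatch, with 4 of 5 called lower. From D1 to D21 leukocyte markers went from 84.5 to 406 CPM (5 of 5 called higher) and smooth muscle markers from 508 to 1004 CPM (4 of 4 called higher). Endothelial markers were called higher in 5 of 6 and adipocyte markers in 4 of 5. Of the connective tissue markers 5 were higher and 2 lower, of skeletal muscle 4 and 1, and of precursors 1 and 4. From D21 to D42 5 of 5 red blood cell, 3 of 5 precursor and 3 of 6 endothelial markers were called lower. So were 1 of 8 connective tissue and 1 of 4 smooth muscle markers. Leukocyte markers were called higher in 3 of 5 and adipocyte markers in 2 of 5, and 0 of 5 skeletal muscle markers were called. Over all genes 37.3% were called higher and 35.6% lower across hatch, and 36.4% and 36.8% from D1 to D21. From D21 to D42 the shares were 17.1% and 15.6%. None of these 18 muscle, precursor and connective tissue genes had a count of 0 in any library. The part of these shifts in the stage differences of the 5 genes was not tested. In bulk tissue, fewer cells of a type and less RNA per cell cannot be told apart.

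Cornish and White Plymouth Rock birds were compared stage by stage, each time in a fit of 18 libraries. At E17 WFIKKN1 was higher in Cornish, with 163 ± 28.6 CPM against 97.4 ± 27.3 CPM (SD, n = 6 each), a 1.66-fold difference (log2 0.73 ± 0.18 SE, adjusted p = 0.0292, edgeR over 11717 genes). Of the Cornish libraries 5 lay between 161 and 190 CPM, above the White Plymouth Rock maximum of 133 CPM, and the sixth at 111 CPM. It was the only 1 of the 5 called, where 3.72% of all genes were (1.65% higher and 2.07% lower). The call was lost without Cornish E17 library 1, 3, 4 or 6 or White Plymouth Rock E17 library 2 (adjusted p 0.0508 to 0.0667), and in a fit of all 72 libraries (log2 0.74, adjusted p = 0.784). Red blood cell markers differed in the same direction: all 5 were called higher in Cornish, with a summed 1057 to 1494 CPM against 437 to 987 CPM, and HBE1 was at 0 in 3 of the 72 libraries. Of the other markers, 1 of 8 for connective tissue and 1 of 6 for endothelium were called higher in Cornish, and both skin keratins in the table lower. The keratins summed to 2.92 to 8.85 CPM in Cornish and 3.97 to 191 CPM (median 7.41) in White Plymouth Rock libraries. Smooth muscle markers, of which 0 of 4 were called, summed to 316 to 398 CPM and 278 to 906 CPM (median 345). The part of these markers in the WFIKKN1 difference was not tested.

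At D21 FSTL3 was lower in Cornish than in White Plymouth Rock birds, with 5.38 ± 1.99 CPM against 11.1 ± 3.02 CPM (SD, n = 6 each), a 2.05-fold difference (log2 −1.04 ± 0.24 SE, adjusted p = 0.0264, edgeR over 11513 genes). Of the Cornish libraries 4 lay between 3.60 and 4.93 CPM, below every White Plymouth Rock library, while libraries 3 and 6 at 8.26 and 7.46 CPM lay within the White Plymouth Rock range. It was the only 1 of the 5 called, where 2.93% of all genes were (1.53% higher and 1.4% lower). The call was lost without Cornish D21 library 1, 2 or 4 or White Plymouth Rock D21 library 1 or 3 (adjusted p 0.0572 to 0.0672). At this stage 0 of 5 skeletal muscle, 0 of 5 precursor and 0 of 8 connective tissue markers were called between these breeds by edgeR, while 1 of 6 endothelial markers was lower and 1 of 4 smooth muscle markers higher in Cornish. The part of these markers in the FSTL3 difference was not tested.

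At D1 and D42 edgeR called 0 of the 5 genes between the purebreds, where 0% and 0.0347% of all genes were called (0.0173% higher and 0.0173% lower at D42), and DESeq2 also called 0. At D1 no gene of the 5 had an unadjusted p under 0.05 in edgeR and 1 had in DESeq2. At D42 the number was 0 in both tools. WFIKKN1 at D1 was 15.2 ± 9.30 CPM in Cornish and 7.0 ± 3.41 CPM in White Plymouth Rock libraries (log2 1.12, 95% interval −0.01 to 2.25). For MSTN the purebred log2 difference was −0.19 ± 0.26 at E17, 0.40 ± 0.40 at D1, −0.24 ± 0.29 at D21 and −0.17 ± 0.39 at D42. The widest of these intervals, at D1, reached from −0.44 to 1.23, and so held differences as large as that of FSTL3 at D21. For FST the purebred differences lay between −0.15 and 0.26 and for ACVR2B between −0.21 and 0.02.

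The crossbred was compared with each parental breed and with their mean on the log2 scale. In edgeR 0 of the 5 genes were called in any of these 12 comparisons. The share of all genes called was 0.0171% at E17 with Cornish and 0.00853% with White Plymouth Rock as the parent, 0.122% at D21 with Cornish (0.0261% higher and 0.0955% lower), and 0% in the other 9. At E17 crossbred WFIKKN1 was 105 ± 20.5 CPM, which was −0.63 ± 0.18 from Cornish (adjusted p = 0.28) and 0.10 ± 0.18 from White Plymouth Rock. At D21 crossbred FSTL3 was 10.1 ± 2.84 CPM, which was 0.91 ± 0.24 from Cornish (adjusted p = 0.152 in edgeR, 0.0292 in DESeq2) and −0.13 ± 0.24 from White Plymouth Rock. For both genes the crossbred value thus lay nearer the White Plymouth Rock mean than the Cornish mean at these stages, and the comparison with the mid-parent value passed no threshold. Against Cornish 1 of the 5 genes at E17 and 2 at D21 had an unadjusted p under 0.05, in edgeR (WFIKKN1, and WFIKKN1 with FSTL3) as in DESeq2, and in the other 10 comparisons 0 had in either tool. The crossbred mean of MSTN was the highest of the 3 breeds at E17, D21 and D42, and at D1 only with library 5 (26.3 CPM) included. At D21 this order was not firm either, since the crossbred median was 72.8 CPM and that of White Plymouth Rock 75.9 CPM. The log2 difference between these 2 groups was 0.13 ± 0.29 there, and went as low as −0.04 with 1 library left out. The log2 difference of MSTN from Cornish was 0.44 ± 0.26 at E17, 0.11 ± 0.40 at D1, 0.37 ± 0.29 at D21 and 0.61 ± 0.39 at D42, and none passed the threshold. Without crossbred D1 library 5 the D1 difference turned to −0.47 from Cornish and −0.07 from White Plymouth Rock.

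**Figure D4:**
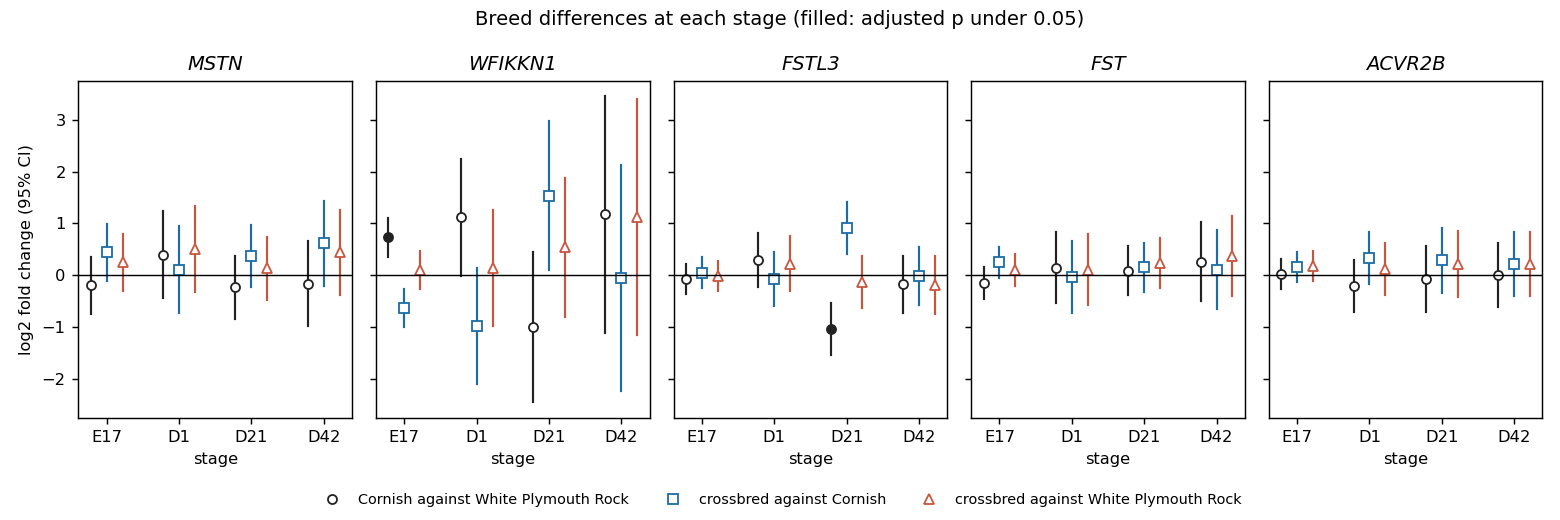
Points are log2 differences between breeds for each gene at each stage from the edgeR fit of that stage, bars are 95% intervals, and filled points have an adjusted p under 0.05. The filled points are WFIKKN1 at E17 and FSTL3 at D21, both for Cornish against White Plymouth Rock.

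The authors' deposited tables, which list unadjusted p-values, held entries for 3 of the 5 genes. In the authors' deposited table for E17, the log2 fold change of WFIKKN1 was −0.73 for White Plymouth Rock over Cornish (p = 4.75e-05) and 0.63 for Cornish over crossbred (p = 1.22e-05). The authors' deposited table for E17 also gave MSTN −0.44 for Cornish over crossbred (p = 0.0195). In edgeR this MSTN comparison had an unadjusted p of 0.112 (adjusted p = 0.567). The authors' deposited table for D1 gave WFIKKN1 −1.12 for White Plymouth Rock over Cornish (p = 0.00714), where edgeR gave an unadjusted p of 0.0515 (adjusted p = 0.579). The authors' deposited table for D21 gave FSTL3 1.03 for White Plymouth Rock over Cornish (p = 2.77e-05) and −0.91 for Cornish over crossbred (p = 0.000347). Apart from MSTN at E17 and WFIKKN1 at D1, these entries had an unadjusted p under 0.05 in edgeR as well.

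The surroundings of the pathway were read from a list of 73 other ligands, extracellular regulators, receptors and SMAD genes, of which 61 were in the table. SMAD4 and the type I receptor gene ACVR1 were among those not analysed here. Across hatch 18 of the 61 were called higher and 25 lower, where 37.3% and 35.6% of all genes were, and with total counts alone the split was 13 and 28. TCAP, a sarcomere protein that also binds myostatin in mammals, rose by 4.98 ± 0.27 on the log2 scale, from 2.72 ± 0.95 to 91.0 ± 104 CPM (SD, n = 18 each). The type I receptor gene ACVR1C rose by 1.76 ± 0.38. The inhibin alpha gene INHA fell by 3.90 ± 0.32, the type I BMP receptor gene BMPR1B by 3.23 ± 0.21 and WFIKKN2, the close relative of WFIKKN1, by 2.73 ± 0.43. Of the 11 other receptor genes tested at this step 4 were higher and 4 lower.

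From D1 to D21 19 listed genes were called higher and 19 lower, where 36.4% and 36.8% of all genes were. Scaling by total counts alone turned this split to 9 higher and 29 lower. WFIKKN2 rose by 3.08 ± 0.43 on the log2 scale at this step and by a further 1.83 ± 0.39 to D42, from 0.216 ± 0.184 through 2.13 ± 2.28 to 6.62 ± 6.53 CPM (SD, n = 18), while WFIKKN1 fell and remained near 0. GREM1, a BMP antagonist, rose by 4.34 ± 0.38 and then by 2.19 ± 0.33, and TCAP rose by 3.20 ± 0.25. The BMP-family ligand GDF5 (−3.51 ± 0.75), the BMP antagonist noggin, NOG (−3.13 ± 0.68), and FSTL5 (−2.18 ± 0.30) were lower at D21. GDF5 and NOG averaged 0.255 and 0.251 CPM at D1, so these changes rest on few reads.

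From D21 to D42 8 listed genes were called higher and 12 lower, where 17.1% and 15.6% of all genes were, and with total counts alone the split was 14 and 7. The ligand gene TGFB3 rose by 0.86 ± 0.16 on the log2 scale and BMP4 fell by 1.03 ± 0.18. FSTL5 (−0.999 ± 0.31) and the inhibin beta B gene INHBB (−0.90 ± 0.35, at 0.540 and 0.295 CPM) were lower at D42. Between E17 and D42 18 were higher and 29 lower (14 and 41 with total counts alone), where 40% and 41.2% of all genes were. The listed genes had a median log2 difference of −0.24 at that comparison, against −0.02 over all genes. At the single steps their median lay nearer that of all genes. It was −0.04 against 0.01 across hatch, 0.04 against −0.008 from D1 to D21, and −0.06 against −0.003 from D21 to D42. ACVR1C was 2.83 ± 0.39 higher and BMPR1B 3.54 ± 0.21 lower at D42 than at E17 on the log2 scale.

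Between the purebreds at E17 2 of 60 listed genes tested were called, both lower in Cornish: CHRDL2, a chordin-like secreted protein (−0.91 ± 0.19, adjusted p = 0.0165, edgeR), and BMPR1B (−0.44 ± 0.12, adjusted p = 0.0474). Over all genes 3.72% were called at that stage, and DESeq2 called 6 of the listed genes, 2 higher and 4 lower in Cornish. The fit of all 72 libraries called 0 of them. With total counts alone, or without the filter on low counts, 1 was called, lower in Cornish. With only the 2 groups compared 2 were higher and 3 lower. At D1, D21 and D42 edgeR called 0 of 61, 59 and 59, where 0%, 2.93% and 0.0347% of all genes were, with 5, 9 and 0 at an unadjusted p under 0.05, and DESeq2 called 0, 2 and 0.

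For each of the 5 genes, the 3 genes whose log2 CPM had the highest Pearson correlation with it over the 72 libraries were taken from 9279 other genes with a mean of at least 5 CPM (9280 for ACVR2B). For MSTN these were CNTNAP1 (0.883), FAM129A (0.878) and COL21A1 (0.875). For WFIKKN1 they were OLFML2A (0.956), MBD3 (0.955) and FZD7 (0.954). FSTL3 was followed most closely by PMP22 (0.929), CACNA2D2 (0.921) and SSBP2 (0.921), FST by ABHD6 (0.861), CD36 (0.848) and ADA (0.841), and ACVR2B by KAT6B (0.919), HDAC4 (0.915) and NFS1 (0.915). These values describe 72 libraries that share 4 stages, and most of the likeness is between stages. Over the 12 group means the same 15 correlations lay between 0.930 and 0.995. Which genes came first depended on the measure. By rank (Spearman) correlation CNTNAP1 was 1st and COL21A1 76th for MSTN, and SSBP2 was 42nd for FSTL3. For FST, CD36 was 1st by rank correlation and 192nd by group means.

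Within the groups, the libraries that were high in FSTL3 tended to be high in FST. The deviations of log2 CPM from the group means had a Pearson correlation of 0.62 over 72 libraries for this pair, with 0.53 at E17, 0.81 at D1, 0.34 at D21 and 0.63 at D42 over 18 libraries each. The pair MSTN and FST had 0.39 over 72 libraries, with −0.03 at E17, 0.43 at D1, 0.62 at D21 and 0.38 at D42. MSTN and FSTL3 had 0.31, with 0.41, 0.53, 0.32 and 0.05 at the same stages. WFIKKN1 and ACVR2B had −0.36. Correlations between the other pairs lay between −0.04 and 0.26 over all 72 libraries, but ranged more widely within stages. FSTL3 and ACVR2B had 0.60 at D21 and −0.56 at D42. WFIKKN1 and FST had −0.56 at E17 and −0.76 at D21, the latter on the few reads of WFIKKN1 at that stage. All pairs come from the same libraries and share their depth and scaling, and White Plymouth Rock D1 library 1 was the lowest of the 18 D1 libraries in FST, FSTL3 and ACVR2B.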

How the data were processed

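Gene counts of 72 libraries were used as deposited by the authors in 1 table. Per the submitters' processing notes, cutadapt 4.4, HISAT2 2.2.1, StringTie and the GRCg7b assembly were used. The deposited values are whole numbers, but 32.9% of values from 1 to 20 were multiples of 4, where 25% would be even, so they were treated as estimated counts whose counting error is not known exactly. The authors' deposited tables also hold log2 fold changes and p-values for breed comparisons, which were not recomputed.

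Counts were tested in R 4.3.3 with edgeR 4.0.16 (TMM scaling, filterByExpr, quasi-likelihood F test), with Benjamini-Hochberg adjustment over all genes tested and a threshold of 0.05. Breed comparisons were fitted within a stage over its 18 libraries. Stage comparisons and the breed by stage interaction were fitted over all 72 with 12 group means. SE is the log2 fold change divided by the root of F. The tests were also run on simulated counts in which few genes were changed. Most genes were called across hatch and from D1 to D21, so the simulation does not check the scaling in those comparisons. Correlations used log2 CPM with a prior count of 2, and count ratios a pseudocount of 0.5. Alternatives were DESeq2 1.42.0, other scalings and filters, counts divided by 4, a replicate block, other sets of libraries and single libraries left out.

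The members and the marker and pathway lists were chosen with earlier results of these data known. The genes named were the 5 members, up to 3 listed genes called in each direction of largest change per comparison, and the 3 genes most correlated with each member; 1 listed gene that met this rule is not reported here. Gene positions came from the RefSeq annotation of the same assembly. Transcript lengths and sequences were not used here.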

Additional observations from a re-analysis of the deposited data

Results flagged for a closer look

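In 5 of the 60 combinations of gene and group, 1 library stood apart from the other 5 by more than Dixon's 95% criterion allows for 6 samples, which chance alone meets in about 1 of 20 groups. MSTN was 26.3 CPM in crossbred D1 library 5, against 4.18 to 9.13 CPM in the others. MSTN was 164 CPM in Cornish D42 library 6, against 44.2 to 74.8 CPM, and the MSTN difference between D21 and D42 had an adjusted p of 0.0443 with this library and 0.089 without it (edgeR). WFIKKN1 was 111 CPM in Cornish E17 library 5, against 161 to 190 CPM. FST was 199 CPM in Cornish D1 library 1, against 65.3 to 111 CPM. ACVR2B was 4.99 CPM in White Plymouth Rock D1 library 1, against 10.8 to 13.5 CPM, and FST (28.5 CPM) and FSTL3 (13.9 CPM) were also lowest there among the D1 libraries. Without that library the difference of FSTL3 across hatch was 0.34 on the log2 scale (adjusted p = 0.0163), against 0.28 (0.0571) with it.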

How the results depend on the processing

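Of 1325 values recomputed for the 5 genes under other settings, 1318 kept their side of the threshold, 5 passed it newly, 2 lost it and 0 called values reversed. A change of sign between values called in neither setting was counted as no reversal, a rule set after the results were seen: there were 15 such changes (main values up to 0.16 on the log2 scale) and 94 of 6120 with a library left out (up to 0.54). At E17 the number of the 5 called between purebreds went from 1 to 0 with all 72 libraries, and from D21 to D42 from 1 to 0 with only the stages compared (MSTN adjusted p = 0.0516). For crossbred against Cornish at D21 it went from 0 to 1 in DESeq2. Leaving out 1 library gave 0 to 1 called for the purebreds at E17, 0 to 1 at D21 and 0 to 1 for D42 against D21. FSTL3 across hatch was called with counts divided by 4 (adjusted p = 0.0421), with only the stages compared (0.0464), without the D42 libraries numbered 3 (0.0486), and without any 1 of 8 libraries (Cornish E17 library 3 and D1 library 6, crossbred E17 library 6 and D1 libraries 1 and 2, and White Plymouth Rock E17 libraries 4 and 5 and D1 library 1; adjusted p 0.0163 to 0.0497). It was not called in DESeq2 (0.0672), with median-of-ratios size factors (0.0703) or with total counts alone, which moved it from 0.28 to 0.13 on the log2 scale (0.443). The cause of these changes was not tested.

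Between breeds, 2 to 4 of 18 pairs of same-numbered libraries correlated above 0.1 at E17, D1 and D21. At D42 12 of 18 did (mean 0.22, against −0.04 for other numbers), so libraries with the same number tended to deviate together there, but not in every pair, and the labels give the numbers no meaning. With a replicate block at D42, genes with an unadjusted p under 0.05 between the purebreds went from 978 to 1650 and calls from 4 to 0. With this block no call among the 5 changed (WFIKKN1 at E17 adjusted p = 0.00929, FSTL3 at D21 adjusted p = 0.015). Scaling by total counts and leaving out libraries in the stage fits were chosen after the data were seen. Total counts shifted the median of all genes to −0.15, −0.32 and −0.41 on the log2 scale across hatch, from D1 to D21 and from E17 to D42, and no direction called for the 5 genes changed. The number of genes called between purebreds at E17, 436, was 868 in DESeq2 and 46 with all 72 libraries, and at D21, 337, it was 739, 217 and 596 (total counts). At D1 and D42, with 0 and 4 called, DESeq2 called 78 and 68 and the fit of 72 libraries 120 and 168. For crossbred against Cornish 14 at D21 became 127 in DESeq2 and 0 with total counts, and the interaction's 7 became 85 in DESeq2. Leaving out 1 library gave 249 to 520 at E17 and 165 to 356 at D21. At D21 and D42 WFIKKN1 had no value under the filter on mean CPM (1 or more) or with counts divided by 4. Its low counts there, and the low total of crossbred D1 library 1, limit what the depth can show.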
